A study of Mus musculus with 14 samples.

Results

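Runx1 binding in multipotent progenitors is described here from the peak list of 1 chromatin immunoprecipitation sequencing (ChIP-seq) library. The members are the 11728 Runx1 peaks on the 19 mouse autosomes and chromosome X, out of 279955 peaks in the lists of 13 transcription factors on the same chromosomes. Every Runx1 peak on these chromosomes was taken, and no peak was chosen by its genes or its partners. The other lists are those of the ETS factors Erg, Fli1 and Spi1, the C/EBP factors Cebpa and Cebpb, the helix-loop-helix factors Tal1 and Lyl1, the zinc finger factors Gata2, Gfi1 and Gfi1b, the homeobox factor Meis1 and the bridging protein Lmo2. Each list comes from 1 library, so values have no replicates behind them and no test was run. All libraries come from Hoxb8-FL, a mouse progenitor line labelled LMPP-like, that is, like the lymphoid-primed multipotent progenitors of bone marrow. The cells were kept in RPMI medium with serum, mercaptoethanol, estradiol and FLT3, received no other treatment, and were fixed for 10 min with formaldehyde at 0.4% or 1%. The labels do not tie the fixation to single factors. A rabbit IgG sample is the control, and no peak list of it was analysed here. Self-renewal in this line is held by a conditional Hoxb8 protein, which limits it as a model of the native cell. The lists hold positions and no expression values, so the labelled cell type could not be checked against its marker genes.

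Runx1 is the DNA-binding subunit of core-binding factor, and its partner Cbfb does not touch DNA but strengthens the binding. The complex recognises a short sequence, the Runx motif, and recruits either coactivators or corepressors such as the Tle and Cbfa2t proteins. Blood stem cells arise from haemogenic endothelium only in its presence, and in adult marrow it is required for lymphoid and megakaryocyte differentiation. ETS factors such as Erg, Fli1 and Spi1 bind next to Runx motifs at many blood enhancers, and Tal1, Lyl1, Gata2 and the bridging protein Lmo2 form a complex that meets Runx1 at the same places.

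The sequences that a Runx1 peak covered at the starts of genes show what the factor met there. Promoter sequence came from RefSeq on the build GRCm38.p6, in windows of 300 bases that run from 250 before to 50 after a listed start of a gene of any type. Of 293 genes in the lists used in this report, 226 had such a window, 68 had one under a Runx1 peak and 19 of these had a Runx motif in it. Counted by window rather than by gene, 10.6% of all 32619 windows were under a Runx1 peak. A Runx motif was in 22.3% of all windows and in 31.0% of those under a Runx1 peak. The motif was searched as TGTGGT or TGCGGT on both strands, and the reverse complement of TGTGGT reads ACCACA. The 8 promoters of these genes with the motif closest to the midpoint of the peak are shown first, cut to the bases around it that lie upstream of the start, with the motif in capitals.
Runx3 (chr4:135120471-135120556, plus strand): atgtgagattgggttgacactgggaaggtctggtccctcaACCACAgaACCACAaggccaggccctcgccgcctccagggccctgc
Rag1 (chr2:101649554-101649639, minus strand): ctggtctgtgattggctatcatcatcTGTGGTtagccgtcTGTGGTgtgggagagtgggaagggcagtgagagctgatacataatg
Rpl18 (chr7:45717967-45718052, plus strand): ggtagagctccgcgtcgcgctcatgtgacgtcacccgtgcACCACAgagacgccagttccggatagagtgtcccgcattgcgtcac
Igll1 (chr16:16864063-16864148, minus strand): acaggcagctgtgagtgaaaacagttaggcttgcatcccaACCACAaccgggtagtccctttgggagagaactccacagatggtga
Rps2 (chr17:24719983-24720062, plus strand): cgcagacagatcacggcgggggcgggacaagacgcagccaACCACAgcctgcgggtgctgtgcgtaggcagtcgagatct
Ctsg (chr14:56102608-56102693, minus strand): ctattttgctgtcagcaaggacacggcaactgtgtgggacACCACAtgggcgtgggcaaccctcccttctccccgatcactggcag
Fcgr3 (chr1:171059395-171059476, minus strand): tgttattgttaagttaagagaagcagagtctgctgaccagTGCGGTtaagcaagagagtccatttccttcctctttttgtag
Elf2 (chr3:51340776-51340861, minus strand): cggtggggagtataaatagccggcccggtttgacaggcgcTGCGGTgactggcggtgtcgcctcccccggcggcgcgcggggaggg

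In Runx3, itself a Runx family gene, and in Rag1, which encodes the recombinase of antigen receptor genes, a pair of motifs sat side by side, 1 and 3 bp from the midpoint of the peak. Igll1 encodes the surrogate light chain of the pre-B cell receptor, Ctsg a granule protease and Fcgr3 an Fc receptor of myeloid cells. Rpl18 and Rps2 encode ribosomal proteins, and Elf2 encodes an ETS factor. The motif lay 10 bp from the midpoint in Rpl18, 16 in Igll1, 20 in Rps2, 43 in Ctsg, 45 in Fcgr3 and 56 in Elf2. Partner factors at these peaks ranged from 0 of 12 at Elf2 to 9 at Ctsg.

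For contrast, these are 3 promoters of the same lists whose window was centred within 7 bp of a peak midpoint and held neither form of the motif, so nothing is in capitals.
Mcm5 (chr8:75109419-75109508, plus strand): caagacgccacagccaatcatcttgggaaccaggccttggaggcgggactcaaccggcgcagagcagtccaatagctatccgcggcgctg
Lyl1 (chr8:84701367-84701456, plus strand): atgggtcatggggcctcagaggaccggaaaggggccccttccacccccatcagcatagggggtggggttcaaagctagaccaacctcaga
Elf1 (chr14:79481104-79481193, plus strand): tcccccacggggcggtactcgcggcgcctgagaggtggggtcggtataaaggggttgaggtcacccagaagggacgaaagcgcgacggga

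Mcm5 encodes a subunit of the replicative helicase, Lyl1 a basic helix-loop-helix factor and Elf1 an ETS factor. The absence of a match says only that these letters are not in the window.

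Every Runx1 peak was deposited at a width of 400 bp, with no height, score or read count, so depth is unknown and the 95% intervals given here (exact binomial for shares, exact Poisson for densities) cover counting error only. The other lists hold between 3217 peaks (Gata2) and 76378 (Spi1). A partner was called where a peak of another list overlapped the Runx1 peak by 1 bp or more. List length sets part of every overlap, so shares are compared between locations for 1 partner rather than between partners.

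Runx1 peaks divided into 3 location classes. Boundary peaks had their midpoint no more than 1 kb from the lower or upper end of a protein-coding gene, gene body peaks lay inside a gene and farther from its ends, and the remainder were intergenic. Gene bodies held 4735 Runx1 peaks (40.4%, interval 39.5 to 41.3), intergenic sequence held 3612 (30.8%, 30.0 to 31.6) and boundaries held 3381 (28.8%, 28.0 to 29.7). Over the full lists the boundary share was the highest of the 13, with Erg next at 26.5% (25.6 to 27.4). Fli1 had 22.7% (22.1 to 23.3), Tal1 5.81% and Meis1 4.8%. This rank did not hold among the first lines of each list, as given with the line order below.

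The boundary peaks lay at starts of genes far more often than at ends. Strand was listed for the gene of 2757 boundary peaks. Of these, 2571 (93.3%, 92.3 to 94.2) were at the start and 186 (6.75%, 5.84 to 7.75) at the end. The share at starts was 93.9% for Gata2 (90.9 to 96.1), 91.7% for Erg (90.4 to 92.9) and 90.6% for Fli1 (89.6 to 91.4). It was 89.2% for Gfi1 (87.4 to 90.8) and 88.9% for Gfi1b (86.9 to 90.7), but 80.4% for Spi1 (79.5 to 81.3) and 61.2% for Tal1 (57.7 to 64.6). Boundaries of more than 1 gene lay within 1 kb of 598 Runx1 boundary peaks (17.7%, 16.4 to 19), as at neighbouring genes that share a promoter.

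Counted over all listed starts of protein-coding genes, alternative starts included, 3023 Runx1 peaks (25.8%, 25 to 26.6) lay within 1 kb of one. Their midpoints had a median offset of -18 bp, that is, 18 bp upstream, with quartiles at -112 and 66.5 bp. A distance of 100 bp or less was seen for 1593 of them (52.7%, 50.9 to 54.5). The share was 58.9% for Erg, 55.1% for Fli1, 55.1% for Gata2 (of 381 peaks), 35.0% for Spi1 and 28.1% for Tal1. Runx1 peaks near a start therefore centred on it to nearly the degree of the ETS factors Erg and Fli1 and of Gata2.

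**Figure D1:**
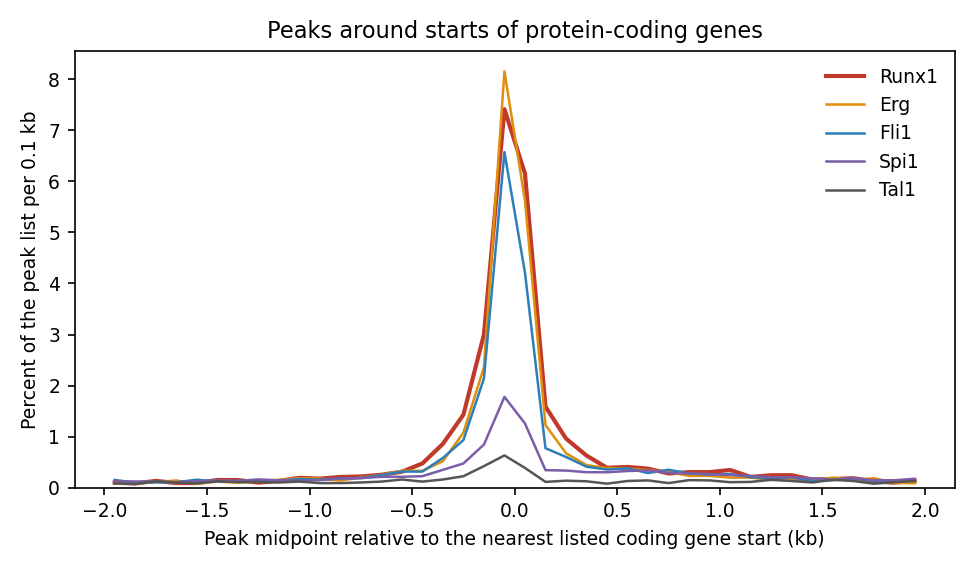
Peaks of 5 factors by the distance of their midpoint from the nearest listed start of a protein-coding gene (kb, negative values upstream), as percent of each factor's list per 0.1 kb. The Runx1 line reaches 7.41% in the 0.1 kb just upstream and 6.15% in the 0.1 kb just downstream, close to Erg and Fli1, while Spi1 and Tal1 stay below 2%.

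Of the 8347 Runx1 peaks outside the boundary class, 768 (9.20%, 8.59 to 9.84) lay within 1 kb of a listed start, either an alternative start of a coding gene, as already counted among the 3023, or the start of a non-coding gene. The matching share was 8.65% for Erg, 7.00% for Fli1 and 3.85% for Spi1. Intergenic Runx1 peaks were a median of 22.4 kb from the nearest gene (quartiles 7.57 and 63.0 kb), and 582 of them (16.1%, 14.9 to 17.4) were over 100 kb away. Runx1 peaks also lay close to each other. The nearest other Runx1 peak was a median of 22.0 kb away, and 3909 peaks (33.3%, 32.5 to 34.2) had another within 10 kb. That share was 28.0% at boundaries (26.4 to 29.5) and 36.7% in gene bodies (35.3 to 38.1).

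Chromosome X carried few Runx1 peaks. It had 105 of them (0.895% of the list), or 10.9 per 100 protein-coding genes, while the autosomes ranged from 37.4 on chromosome 7 to 67.2 on chromosome 12. The other 12 lists together had 1.76% of their peaks on X.

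The company that Runx1 kept differed sharply between gene boundaries and the rest of the genome. At the deposited list lengths the ETS factors Fli1 and Spi1 and the bridging protein Lmo2 were each present at most boundary Runx1 peaks, and Tal1, Lyl1 and Meis1 at few. In gene bodies and between genes, C/EBP and Tal1 peaks were also present at most Runx1 peaks, and Lyl1 at about 1 in 2. For 11 of the 12 partners the share was lower at boundaries than between genes, with intervals apart. Gata2, a zinc finger factor of stem and early progenitor cells, was the exception.

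Tal1 is a basic helix-loop-helix factor of stem and erythroid cells. It overlapped 12.9% of boundary Runx1 peaks (11.8 to 14.1), 62.9% of those in gene bodies (61.5 to 64.3) and 69.7% of those between genes (68.2 to 71.2). Lyl1, its close relative, overlapped 11.4% (10.4 to 12.6), 49.5% (48.1 to 51.0) and 55.4% (53.8 to 57.1). Meis1, a homeobox factor, overlapped 5.12% (4.40 to 5.91), 28.7% (27.4 to 30.0) and 34.9% (33.4 to 36.5). Each of these partners was missing from the large majority of boundary Runx1 peaks. With every other list shortened to its first 3217 lines, the shares at boundaries and between genes were 4.35% and 29.5% for Tal1, 4.26% and 29.7% for Lyl1 and 1.95% and 17.2% for Meis1, so the differences were smaller and those of Tal1 and Lyl1 nearly equal.

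The ETS partners were also less frequent at boundaries. Fli1 overlapped 61.2% of boundary peaks (59.5 to 62.8), 70.2% in gene bodies (68.9 to 71.5) and 74.3% between genes (72.8 to 75.7). Erg overlapped 39.1% (37.4 to 40.7), 45.4% (44.0 to 46.8) and 47.2% (45.5 to 48.8). Spi1, the ETS factor of myeloid and lymphoid cells also known as PU.1, overlapped 55.8% (54.1 to 57.4), 73.4% (72.1 to 74.7) and 75.5% (74.0 to 76.9). In shortened lists the shares at boundaries and between genes were 15.2% and 24.1% for Erg, 9.26% and 23.3% for Fli1 and 2.84% and 9.30% for Spi1. At least 1 of the 3 ETS factors was present at 76.6% of boundary peaks (75.2 to 78.1), 85.7% in gene bodies (84.7 to 86.7) and 87.4% between genes (86.2 to 88.4). ETS factors with no other partner were found at 14.2% of boundary peaks (13.1 to 15.4) but at 3.95% in gene bodies (3.41 to 4.54) and 2.41% between genes (1.93 to 2.96).

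The myeloid factors Cebpa and Cebpb and the repressors Gfi1 and Gfi1b followed the same direction. Cebpb overlapped 42.2% of boundary Runx1 peaks (40.5 to 43.9), 64.7% in gene bodies (63.3 to 66.1) and 71.4% between genes (69.9 to 72.9). Cebpa overlapped 37.7% (36.0 to 39.3), 60.8% (59.4 to 62.2) and 67.7% (66.1 to 69.2). Gfi1 overlapped 16.6% (15.4 to 17.9), 33.9% (32.5 to 35.3) and 40.1% (38.5 to 41.7). Gfi1b overlapped 11.5% (10.4 to 12.6), 26.9% (25.6 to 28.2) and 33.2% (31.7 to 34.8). In shortened lists their differences between boundaries and intergenic sequence, from -9.22 percentage points for Cebpb to -12.5 for Gfi1, were smaller than the -14.0 of Fli1. The order of partners by the size of this difference thus changed when only the first lines were kept. That cut alters list length and line order together, so their parts cannot be told apart. Gata2 overlapped 4.70% of boundary peaks (4.01 to 5.47), 2.91% in gene bodies (2.45 to 3.43) and 3.18% between genes (2.64 to 3.81).

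Lmo2 does not bind DNA itself and is carried to it by partners, classically Tal1 or Lyl1. At Runx1 peaks it overlapped 54.8% at boundaries (53.1 to 56.5), 82.8% in gene bodies (81.7 to 83.9) and 86.4% between genes (85.2 to 87.5). Lmo2 with neither Tal1 nor Lyl1 was the more frequent form at boundaries, at 41.0% of Runx1 peaks (39.3 to 42.6) against 13.9% with at least 1 of them (12.7 to 15.1). Between genes the order was the other way, with 17.5% (16.2 to 18.7) against 68.9% (67.3 to 70.4). These shares are at the deposited list lengths, with 26738 Lmo2, 17193 Tal1 and 8903 Lyl1 peaks. In shortened lists Lmo2 overlapped 4.67% at boundaries and 27.5% between genes, close to the 4.35% and 29.5% of Tal1. The split of Lmo2 by Tal1 and Lyl1 was not repeated in shortened lists.

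**Figure D2:**
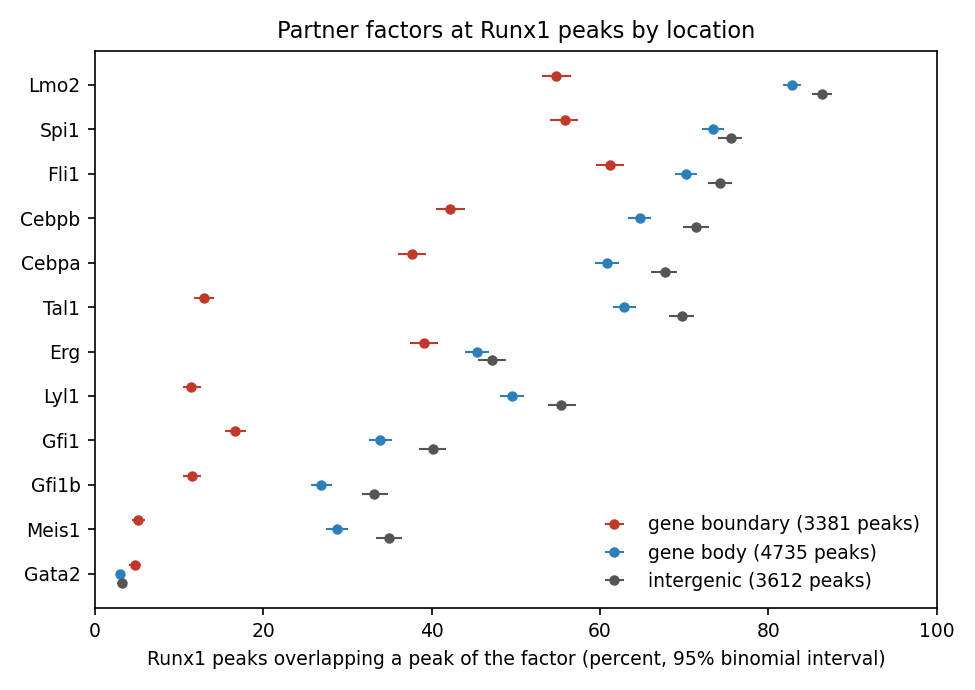
Percent of Runx1 peaks that overlap a peak of each other factor, for the 3381 boundary, 4735 gene body and 3612 intergenic Runx1 peaks, with exact 95% binomial intervals. Boundary points lie left of the other classes for every factor except Gata2, for example 12.9% against 69.7% between genes for Tal1 and 39.1% against 47.2% for Erg, at the deposited list lengths.

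The low shares were found at starts of genes and less so at ends. At the 186 peaks at gene ends Tal1 was present at 56.5% (49.0 to 63.7) and Lmo2 at 76.3% (69.6 to 82.3), and at the 2571 peaks at gene starts at 9.61% (8.50 to 10.8) and 53.9% (52.0 to 55.9). Fli1 was present at 66.7% of the peaks at ends (59.4 to 73.4) and 61.8% at starts (59.9 to 63.6). The 768 peaks at listed starts outside the boundary class were intermediate, with Tal1 at 34.2% (30.9 to 37.7). The 556 intergenic peaks over 100 kb from a gene and away from a listed start had the most company, with Tal1 at 78.6% (75 to 81.9), Meis1 at 48.0% (43.8 to 52.3) and a median of 8 partners.

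Partner number followed the same division. Boundary Runx1 peaks had a median of 3 partners out of 12 (mean 3.53 ± 2.45, SD over peaks), gene body peaks 6 (6.02 ± 3.07) and intergenic peaks 7 (6.59 ± 2.99). No partner at all was found at 328 boundary peaks (9.70%, 8.72 to 10.7), 185 gene body peaks (3.91%, 3.37 to 4.50) and 95 intergenic peaks (2.63%, 2.13 to 3.21). At the other end, 9 or more partners were found at 4.55% of boundary peaks (3.88 to 5.31), 25% in gene bodies (23.8 to 26.3) and 31.8% between genes (30.3 to 33.4). All 12 partners met Runx1 at 40 peaks, of which 2 were at a boundary, 17 in gene bodies and 21 intergenic.

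Read the other way, boundaries held 53.9% of the 608 Runx1 peaks without a partner (49.9 to 58.0), 42.9% of the 1271 with 4 partners (40.1 to 45.7), 9.05% of the 1171 with 8 (7.47 to 10.8) and 4.41% of the 544 with 11 (2.85 to 6.49). The commonest exact sets of partners differed too. After no partner at all, the commonest at boundaries was Erg, Fli1, Lmo2 and Spi1 (165 peaks, 4.88%), then Spi1 alone (139 peaks, 4.11%). In gene bodies it was the 11 factors other than Gata2 (228 peaks, 4.82%), and the same set came first between genes (240 peaks, 6.64%). No set was dominant, as the boundary peaks showed 455 distinct sets, the gene body peaks 661 and the intergenic peaks 572.

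**Figure D3:**
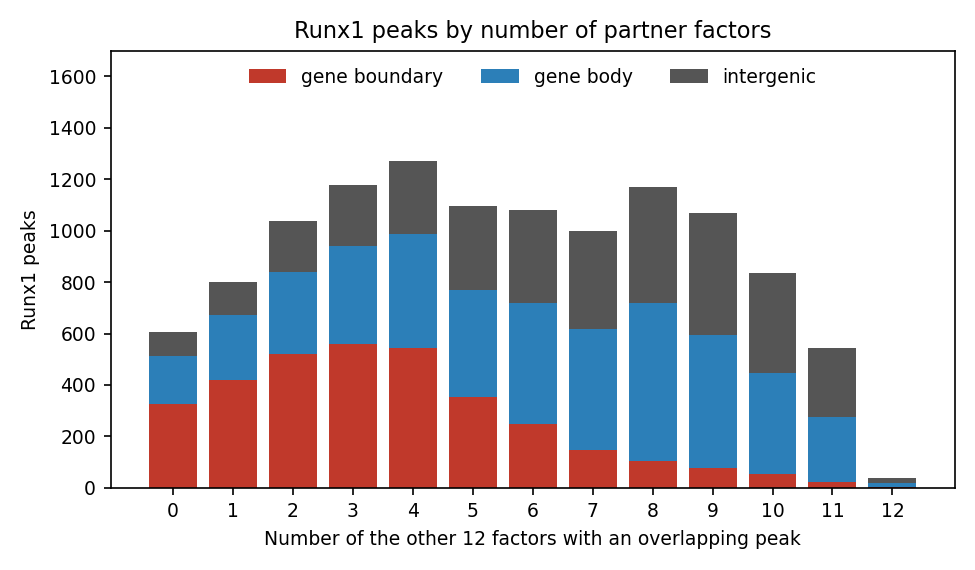
Number of Runx1 peaks (vertical axis) by how many of the 12 other factors overlap them (horizontal axis), stacked by location. Boundary peaks make up most of the bars at 0 to 2 partners (53.9% at 0) and little of those at 8 or more (9.05% at 8).

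Seen from the partners, Runx1 was present at a larger part of their boundary peaks in most lists. Runx1 lay at 21.5% of boundary Spi1 peaks (20.6 to 22.4) but 8.94% of intergenic ones (8.62 to 9.26), and at 29.1% of boundary Cebpa peaks (27.8 to 30.5) but 17.1% of intergenic ones (16.5 to 17.8). For Gata2 the shares were 35.7% (31.2 to 40.3) and 7.21% (5.99 to 8.60), and for Tal1 43.7% (40.6 to 46.9) and 32.8% (31.8 to 33.9). Erg showed no such rise, at 55.0% (53.0 to 57.1) and 58.5% (56.7 to 60.3), and Gfi1 had the lower share at boundaries, 33.5% (31.2 to 35.8) against 39.9% (38.3 to 41.5). So Tal1 peaks were rare at boundaries, and those present there met Runx1 more often than Tal1 peaks elsewhere.

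Where a Runx1 peak overlapped a peak of a partner, their midpoints lay close together. Only such overlapping peaks were measured, and the overlap itself limits how far apart midpoints can be. The median distance was 29 bp for Lyl1, 31 bp for Erg, Lmo2 and Tal1 and 33 bp for Fli1, and it was 43.5 bp for Gfi1, 46 bp for Gfi1b, 48 bp for Cebpa and Cebpb, 49 bp for Spi1, 50 bp for Meis1 and 57 bp for Gata2. Midpoints lay farther apart at boundaries than between genes for most partners, with medians of 44 against 29 bp for Fli1, 68 against 45 bp for Spi1, 65 against 45 bp for Cebpa, 62 against 42 bp for Gfi1 and 43 against 28 bp for Lmo2. For Tal1 the medians were 33 and 30 bp, and for Lyl1 30 and 29 bp.

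The order of lines in the deposited list went with location and company, although what the order stands for is not stated. In the first 20% of the Runx1 lines 15.0% of peaks were at boundaries (13.5 to 16.5), and in the last 20% 34.3% (32.4 to 36.2). Mean partner number fell from 7.92 to 3.98 and the share without a partner rose from 0.554% to 10.7%. The location contrast was present at both ends of the list. In the first 20% boundary peaks had a mean of 5.89 partners and intergenic ones 8.50, with Tal1 at 43.6% and 90.9%. In the last 20% the means were 2.57 and 4.96, with Tal1 at 6.59% and 50.8%. Lmo2 peaks also went from fewer to more at boundaries from the first to the last 20% of their lines (7.12% to 24.0%). So did Erg (21.8% to 27.2%) and Fli1 (16.5% to 22.3%), while Gata2 went from more to fewer (25.6% to 8.55%). In the first 20% of lines the Runx1 boundary share of 15.0% was below those of Gata2, Erg and Fli1. In the last 20% the Runx1 share was the highest of all lists.

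Before base composition was considered, promoter windows under Runx1 peaks held 1 Runx motif form and an ETS motif more often than windows in general. Runx1 peaks overlapped 3455 of the 32619 promoter windows (10.6%), from 3113 genes. A window with both forms of the Runx motif was counted once, both strands were searched, and matches of different motifs could share bases. The Runx motif in either form was in 31.0% of windows under a Runx1 peak (29.5 to 32.6), in 22.3% of all windows, in 19.6% of those with a peak of another factor and no Runx1 (18.7 to 20.6) and in 21.8% of those with no peak (21.3 to 22.4). The forms behaved differently. TGCGGT was in 17.0% of Runx1 windows (15.8 to 18.3) and 6.44% of all windows. TGTGGT was in 16.2% (15.0 to 17.5) and 16.6%, so the share of windows holding it did not stand out from the background, although it was above the 13.2% (12.4 to 14.0) of windows with another factor and no Runx1.

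Base composition moved with these shares. The median window under a Runx1 peak had 63.7% G and C, against 53.0% over all windows and 58.3% where another factor but not Runx1 had a peak. Compared within classes of G and C content, the Runx motif was more frequent under Runx1 than under another factor in each of the 4 classes, with intervals that overlapped above 70%. Below 50% G and C the shares were 43.3% (36.7 to 50.1) and 22.6% (20.4 to 25), and from 60% to 70% they were 30.6% (28.3 to 33.0) and 17.6% (16.0 to 19.2). Below 50%, TGTGGT was in 33.0% of Runx1 windows (26.9 to 39.6) and in 19.5% of those with another factor (17.4 to 21.8). From 50% to 60% it was in 22.9% (20.3 to 25.7) and 15.4% (14.1 to 16.9). From 60% to 70% it was in 13.8% (12.1 to 15.6) and 9.87% (8.68 to 11.2). Above 70% it was in 7.73% and 5.69%, with intervals that overlapped. Windows with no peak held it in 20.3%, 19.3%, 11.7% and 4.19%, from the lowest class to the highest. Their intervals met those of Runx1 from 50% to 70%. TGCGGT was more frequent under Runx1 than under another factor in each class, with overlapping intervals above 70%.

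Both forms were densest at the midpoint of the Runx1 peak. TGTGGT occurred 1.47 times per kb within 25 bp of the midpoint (1.24 to 1.73) and 0.413 times at 150 to 200 bp (0.310 to 0.539). TGCGGT occurred 2.04 times per kb (1.77 to 2.34) and 0.268 times (0.186 to 0.372). Under Fli1 peaks without Runx1 neither form rose towards the midpoint, with TGTGGT at 0.297 per kb within 25 bp (0.190 to 0.441) and 0.549 at 150 to 200 bp (0.413 to 0.714). In the first 20% of the Runx1 lines the densities within 25 bp were higher, at 3.24 for TGTGGT (2.20 to 4.6) and 4.50 for TGCGGT (3.26 to 6.06), and the motif in either form was in 47.6% of windows (42.0 to 53.3) against 22.7% (19.9 to 25.8) in the last 20%.

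The ETS motif CCGGAAG was in 26.6% of windows under a Runx1 peak (25.1 to 28.1) and in 8.92% of all windows. It went with the ETS peaks rather than with Runx1. Where Erg or Fli1 joined Runx1 it was in 37.0% of windows (35.0 to 39.1), and where Runx1 had no ETS partner in 7.23% (5.56 to 9.21). The Runx motif was in 30.6% of the latter (27.5 to 33.9) and 31.1% of the former (29.2 to 33.1), with intervals that overlap. Within 25 bp of the midpoint the density of CCGGAAG was 5.03 per kb under Fli1 peaks without Runx1 (4.55 to 5.54) and 2.07 under Runx1 peaks (1.80 to 2.38). The GC box GGGCGG, bound by Sp family factors at CpG island promoters, was in 68.2% of Runx1 windows (66.7 to 69.8), 54.9% of those with another factor (53.7 to 56.0) and 35.9% of all windows. Within classes of G and C content, windows with a Runx1 peak had a higher share with intervals apart in the class below 50% (20.1%, 15 to 25.9, against 11.3%, 9.60 to 13.2, for windows with a peak of another factor and none of Runx1). In the other classes the intervals of these shares overlapped, with 48.0% (44.8 to 51.3) and 43.8% (41.9 to 45.7) from 50% to 60%, 77.2% (75 to 79.3) and 78.0% (76.3 to 79.7) from 60% to 70%, and 89.7% (87.3 to 91.8) and 92.4% (90.4 to 94.1) above 70%.

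Windows where Tal1 or Lyl1 joined Runx1 had another make-up. In these 406 windows TGTGGT was in 29.6% (25.2 to 34.3), the E-box CAGCTG in 26.1% (21.9 to 30.7) and the GC box in 35.0% (30.3 to 39.8), and the median G and C content was 56.0%. In the 347 windows with Runx1 and no other factor, TGCGGT was in 19.6% (15.6 to 24.2), CCGGAAG in 6.34% (4.02 to 9.44) and the GC box in 82.4% (78.0 to 86.3).

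**Figure D4:**
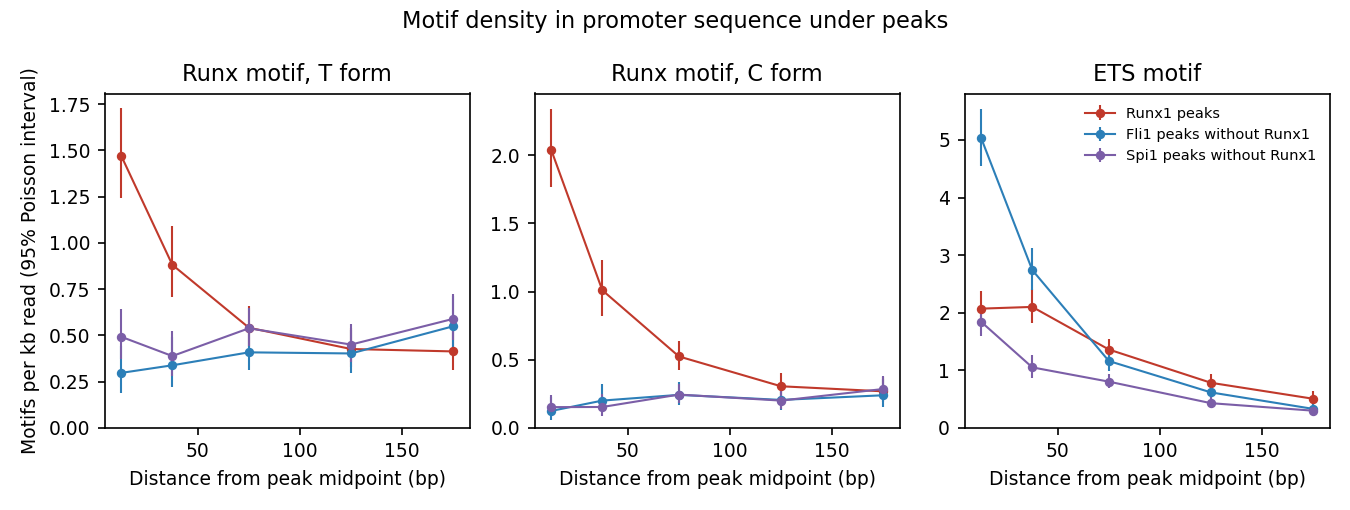
Motifs per kb of promoter sequence by distance from the peak midpoint (bp), for TGTGGT (T form), TGCGGT (C form) and CCGGAAG (ETS motif), under Runx1 peaks and under Fli1 or Spi1 peaks without Runx1, with exact 95% Poisson intervals. Both Runx forms peak at the midpoint of Runx1 peaks (1.47 and 2.04 per kb) and stay flat or lower there under the other factors, while the ETS motif peaks most under Fli1 (5.03 per kb).

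Runx1 met 3782 of 21627 protein-coding genes (17.5%) at a boundary and 12283 (56.8%) anywhere in the gene or within 50 kb, here called the locus. The share of genes with Runx1 at a boundary climbed with the number of other factors there. Runx1 was at 1.41% of the 10206 genes with no other factor at a boundary (1.19 to 1.66), at 41.7% of the 1598 genes with 4 (39.2 to 44.1) and at 92.3% of the 39 genes with 11 (79.1 to 98.4). Of its 3782 boundary genes, 72.8% also had Spi1 (71.4 to 74.3), 69.4% Fli1 (67.9 to 70.9), 61.7% Lmo2 (60.2 to 63.3) and 14.2% Tal1 (13.1 to 15.3). Over all protein-coding genes the shares were 37.9% for Spi1, 25.5% for Fli1, 20.9% for Lmo2 and 4.68% for Tal1. No other factor was at 144 of the Runx1 boundary genes (3.81%, 3.22 to 4.47).

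The gene nearest to the most Runx1 peaks was Runx1 itself, with 24. Its locus on chr16 held 16, of which 13 lay inside the gene, and they had between 1 and 11 partners with a median of 7.5. A peak at chr16:92825839-92826238, 0.036 kb inside the outermost start, had 7 partners (Cebpa, Cebpb, Fli1, Gfi1b, Lmo2, Spi1 and Tal1). Farther in, at 2.31 kb and 3.8 kb, peaks with 10 and 8 partners followed. A close pair at chr16:92800803-92801202 and chr16:92801562-92801961, 25.1 and 24.3 kb inside, had 11 and 10 partners, and the first of them lacked Lmo2 alone. At chr16:92696493-92696892 and chr16:92697927-92698326, 129 and 128 kb from the outermost start, peaks with 5 and 3 partners lacked Tal1, Lyl1 and Erg. Nearer the middle of the gene, at 116 and 110 kb, peaks had 5 and 9 partners, and both met Tal1 and Lyl1. Upstream of the gene a peak at 41.4 kb had 10 partners and 1 at 26.4 kb had Lyl1 only.

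The other core-binding factor genes were bound as well. Runx2, the Runx factor of bone, had 9 peaks in its locus, all inside the gene and none at a boundary. Runx3, which acts in T cells, had 7, and its start peak at chr4:135120316-135120715, whose paired motifs are printed above, met Cebpb, Lmo2, Lyl1 and Tal1 but no ETS factor. Cbfb, the non-DNA-binding subunit, had 3 peaks in the locus and none at a boundary.

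All 13 genes of the assayed factors had a Runx1 peak in the locus, against 56.8% of all genes and 85% of the 20 housekeeping genes. A boundary peak was at 8 of them (61.5%, 31.6 to 86.1), against 17.5% of all genes and 45% of the housekeeping genes. At the same 13 genes Cebpa and Cebpb each had a boundary peak at 11, Spi1 at 10 and Lmo2 at 9. Over all protein-coding genes the boundary shares were 21% for Cebpa, 22.8% for Cebpb, 37.9% for Spi1 and 20.9% for Lmo2. Spi1 had 10 peaks. The one at chr2:91082846-91083245, 0.671 kb inside the lower end of the gene, had 10 partners, and the one at chr2:91096495-91096894, 14.3 kb in, had every partner except Gata2. A pair of Spi1 locus peaks, 16.7 and 28.2 kb outside the gene, had no partner at all. Lyl1 had 9 peaks, including the start peak printed above, with 8 partners that did not include Lmo2. Gfi1b had a start peak with 10 partners, Tal1 a single locus peak, at its start with 8 partners, and Meis1 had 2 start peaks. Cebpa had a start peak with Cebpa, Cebpb and Lmo2, and a peak at chr7:35156471-35156870, 37.4 kb downstream of the start, where all 12 partners met. Erg, Fli1 and Lmo2 had 3, 4 and 3 locus peaks with none at a boundary.

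Literature targets of Runx1 had a boundary peak in 13 of 30 cases (43.3%, 25.5 to 62.6) and a locus peak in 28 (93.3%, 77.9 to 99.2), beside 17.5% and 56.8% of all genes and 45% and 85% of the 20 housekeeping genes. The list was written from general knowledge of Runx1. Mpo, the myeloperoxidase of granulocytes, had 7 locus peaks and none inside the gene. Its start peak, 0.226 kb upstream, had 9 partners, and a peak 42.0 kb upstream had 11. Elane, neutrophil elastase, had 10 locus peaks, all outside the gene and none at its boundary, with a median of 3 partners. The nearest was 1.59 kb upstream, and the richest, with 9 partners, was 8.26 kb upstream in the direction of the neighbouring protease gene Prtn3. Itga2b, the platelet integrin chain CD41, had a start peak with 10 partners at chr11:102470021-102470420, and Nfe2, a factor of megakaryocytes and red cells, had a boundary peak with 11. The cell cycle genes Ccnd3 and Cdk6 had 7 and 5 locus peaks and Cdkn1a, an inhibitor of the cycle, had 8. Kit, the stem cell factor receptor, and Trib2 had none.

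Corepressor and cofactor genes of Runx1 had a boundary peak in 11 of 18 cases (61.1%, 35.7 to 82.7, against 17.5% of all genes and 45% of the housekeeping genes). Tle1, Tle2, Tle3 and Tle4, the Groucho-type corepressors, were all among them. Tle2 had 10 locus peaks, and its start peak had no partner. Cbfa2t3, also called Eto2, had a start peak with 10 partners, and Ncor1 had a start peak with 2. No Runx1 peak was in the locus of Runx1t1, the Cbfa2t relative fused to Runx1 in leukaemia.

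Flt3, the receptor whose ligand feeds these cells, led the stem and multipotent progenitor list. In that list 4 of 20 genes had a boundary peak (20%, 5.73 to 43.7) and 15 a locus peak (75%, 50.9 to 91.3). Locus peaks were at 56.8% of all genes and 85% of the housekeeping genes. The 10 locus peaks of Flt3 included 6 inside the gene. The start peak, at 0.081 kb, had Cebpb, Lmo2 and Spi1 as partners, and a peak at 33.9 kb inside had all but Gata2. Myb and Meis1 had start peaks, and Hoxa10 a peak at its end. Granulocyte and monocyte genes had boundary peaks in 5 of 25 cases (20%, 6.83 to 40.7): Mpo, Prtn3, Ctsg, Mmp8 and Ncf1. The boundary shares of these lists were close to the 17.5% of all genes.

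Lymphoid genes were near that background too. B cell genes had a boundary peak in 4 of 19 cases (21.1%, 6.05 to 45.6), namely Il7r, Rag1, Igll1 and Tcf3. They had a locus peak in 16 (84.2%, 60.4 to 96.6, against 56.8% of all genes and 85% of the housekeeping genes). Il7r, the interleukin 7 receptor, had a start peak with 9 partners. Blnk and Ikzf1 had 7 and 5 locus peaks and none at a boundary. T cell genes had a boundary peak in 3 of 16 cases (18.8%, 4.05 to 45.6), namely Cd3d, Lat and Notch1, and both Notch1 boundary peaks were at its start. Erythroid genes had 4 of 19 (21.1%, 6.05 to 45.6) and platelet genes 2 of 15 (13.3%, 1.66 to 40.5), although Zfpm1, the cofactor of Gata1, had 12 locus peaks and the platelet integrin Itgb3 had 8.

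Cytokine receptor and signalling genes had a boundary peak in 10 of 18 cases (55.6%, 30.8 to 78.5), among them Il6ra, Il3ra, Jak1 and Stat3. Housekeeping genes and replication genes each had 9 of 20 (45.0%, 23.1 to 68.5), and the replication genes with one included the helicase subunits Mcm4, Mcm5, Mcm6 and Mcm7 and the loading factor Cdt1. Ribosomal protein genes had Runx1 at 9 of 30 boundaries (30.0%, 14.7 to 49.4), where Fli1 was at 25, Spi1 at 24 and Erg at 15. Over all protein-coding genes the boundary shares were 17.5% for Runx1, 25.5% for Fli1, 37.9% for Spi1 and 13% for Erg. ETS family genes had 5 of 16 (31.2%, 11.0 to 58.7). None of 20 liver genes and none of 20 neuron genes had a boundary peak (0 to 16.8%). A locus peak was at 1 liver gene (5%) and 7 neuron genes (35%), against 56.8% of all genes.

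**Figure D5:**
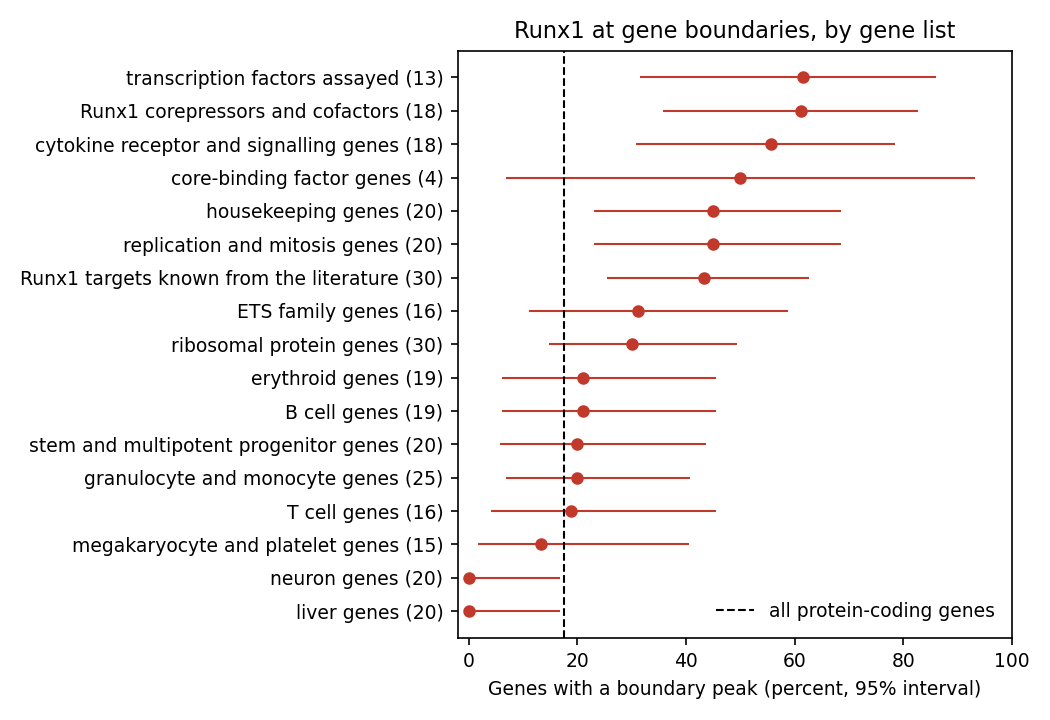
Percent of the genes of each list (number of genes in brackets) with a Runx1 peak midpoint within 1 kb of a boundary, with exact 95% binomial intervals; the dashed line is the 17.5% of all protein-coding genes. The assayed factors (61.5%) and the Runx1 cofactors (61.1%) are at the top and liver and neuron genes (0%) at the bottom, and most lineage lists lie at the line.

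Runx1 peaks were unevenly spread over genes. No Runx1 peak had its nearest boundary at 14794 genes (68.4%), 4374 genes (20.2%) had 1 such peak and 298 (1.38%) had 5 or more. After Runx1 itself, Zfp36l2, an RNA-binding regulator of stem cells, was nearest to 18, Gins2 to 15, Pde4d and Septin9 to 14 each, Pik3r1 and Tns3 to 13 each, and Foxp1 to 12. The 15 Gins2 peaks were classed as gene body because they lie inside the neighbouring gene Gse1. Those of Pde4d (13 of 14) and Foxp1 (12 of 12) lay inside long genes of 1302 and 597 kb.

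The densest 100 kb windows lay at some of these genes and at others. A stretch at chr17:84112468-84188840 next to Zfp36l2 held 15 Runx1 peaks, with 0 to 10 partners. The Zfp36l2 boundary peaks, at 0.015 and 0.693 kb, had 0 and 5 partners, a peak inside the gene at 1.01 kb had none, and intergenic ones at 6.29 and 22.3 kb had 10 each. Inside Gse1, chr8:120485128-120571959 held 14 peaks, and 12 each were found at chr1:86434401-86528407 by Ptma, at chr8:122278944-122376839 by Zfpm1 and at chr16:49770389-49857988 by Cd47.

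Boundary peaks with the most partners included several at genes known from blood cells. All 12 partners met Runx1 at Rgs18, a regulator of G-protein signalling in platelets and myeloid cells, 90 bp from the boundary, and at the end of Slc35b4, 415 bp away. Gata2 alone was missing at starts of the tetraspanin Cd53, the adaptor Hcls1, Klhl6, the myeloid receptor Trem1, Plekhg5 and Cnot6l. At Cd53 the midpoint fell on the start itself. Of the boundary peaks with no partner, the 10 closest to a boundary, at 1 to 10 bp, were at Klhl11, Pcbp3, Chchd7, Hsdl1, Ydjc, Klhl17, Zfp207, Rgs2, Cyc1 and Bag2. None of these was in the first 20% of the lines, which held 13 of all 608 Runx1 peaks without a partner.

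MicroRNA genes near Runx1 peaks included some with known roles in blood cells. A hairpin had a Runx1 peak midpoint within 1 kb of its own midpoint in 51 of 1005 cases (5.07%). The share was 14.5% for Spi1, 6.97% for Fli1 and 2.49% for Tal1. These lists hold 11728 Runx1, 76378 Spi1, 22034 Fli1 and 17193 Tal1 peaks. List length sets part of each share, so the shares do not rank the factors. The examples below were picked after their values were seen. They are printed as RefSeq mature sequences on GRCm38.p6, with the seed (bases 2 to 8), which pairs with target messages, in capitals.
mmu-miR-142a-5p (chr11:87756867-87756887, plus strand): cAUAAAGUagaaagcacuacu
mmu-miR-142a-3p (chr11:87756903-87756925, plus strand): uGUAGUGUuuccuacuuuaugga
mmu-miR-27a-3p (chr8:84208727-84208747, plus strand): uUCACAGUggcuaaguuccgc
mmu-miR-196b-5p (chr6:52230129-52230150, minus strand): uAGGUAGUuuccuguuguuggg

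The distances given here are between the midpoints of hairpin and peak. Mir142, a microRNA of haematopoietic cells, had a Runx1 peak with 4 partners that overlapped its hairpin, with midpoints 211 bp apart, and that peak is among the Mpo locus peaks 37.1 kb upstream of Mpo. Mir27a lies in a cluster with Mir23a and Mir24-2, and the midpoint of a peak with 10 partners lay 521 bp from that of its hairpin. Mir196b, in the Hoxa cluster, had a peak with 2 partners at a midpoint distance of 512 bp, which is the Hoxa10 end peak. Mir191 and Mir425 shared a peak with no partner.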

How the data were processed

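ChIP-seq peak lists of 13 factors, 1 library each, were analysed. The deposited files hold peak positions only (chromosome, start, end), with no score or count. The submitters' processing notes name the tools Bowtie2, bedtools and MACS2 and the builds mm10 and GRCm38. Versions, roles, the calling threshold and any use of the IgG sample: not given in the sources used here. All Runx1 peaks are 400 bp wide. Over all files 3 mitochondrial lines were left out. Coordinates count from 1.

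Genes were the 21627 protein-coding genes of a RefSeq table of GRCm38.p6, which gives no strand. Starts, strand (for 17273 of these genes) and sequence came from 32619 RefSeq promoter windows of the same assembly, and where strand was not listed a boundary was not split into start and end. Exons were not separated from introns or untranslated regions. A peak was placed by its midpoint relative to the nearest boundary within 1 kb. Overlap was 1 bp or more. Scripts in Python 3.11.15 (numpy 2.4.6, pandas 2.3.3, scipy 1.17.1, matplotlib 3.10.9) were tested on simulated data. Shares have exact (Clopper-Pearson) 95% binomial intervals and densities exact Poisson intervals, for counting error only.

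The peaks and the 17 gene lists (324 entries, 1 not found, some genes in more than 1 list) were chosen with earlier results of these data known, and lists are described by counts without a test. Genes named by rule were the assayed factors, core-binding factor genes and literature targets, the 3 genes of each list with most locus peaks, the 10 genes nearest to most peaks, the 10 boundary peaks with most partners, the 10 closest boundary peaks with no partner, the 5 densest 100 kb windows and the 11 printed promoters. Other genes were named after their values were seen, and not each gene that the rule took is reported. Alternatives changed the window, the overlap, the gene set, the motif and the lines used.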

Additional observations from a re-analysis of the deposited data

How the results depend on the processing

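Of 66 alternative values, 30 were labelled the same and 36 moved. Shares were held to the counting interval of the main value, and every alternative share fell outside it. Partner differences and counts of lists were held to a fixed tolerance instead, and medians to equality. Only partner differences could be labelled reversed, and none was. The boundary share of Runx1 peaks (28.8%) was 24.2% within 0.5 kb, 34.7% within 2 kb, 30.3% by any base of the peak, 34.1% with genes of every biotype and 23.0% in the first 50% of lines. The gene body share (40.4%) was 36.4% with the 2 kb window, 43.2% with every biotype and 42.2% in the first 50% of lines. The share near a listed start (25.8%) was 22.9% within 0.5 kb. The share with no partner (5.18%) was 7.38% with 200 bp of overlap, 2.88% with midpoints within 1 kb, 7.70% without the Spi1 list and 9.55% with the first 50% of lines of every file. Without Spi1 the median partner number was 5 in gene bodies and 6 between genes. Genes with a locus peak (56.8%) were 36.8% with a 10 kb flank and 68.1% with 100 kb, and boundary genes (17.5%) were 14.9% within 0.5 kb and 20.5% within 2 kb. The Runx motif share (31.0%) was 16.2% for TGTGGT, 5.56% for TGTGGTT (5.29% of all windows), 36.4% with the midpoint inside the window and 38.8% in the first 50% of lines. The cause of these moves was not tested beyond what each alternative's construction sets. The lower share at boundaries held for 11 of 12 partners under the 3 alternatives run for it (200 bp of overlap, the 2 kb window and shortened lists), and of 36 boundary minus intergenic differences 13 moved and none reversed. With the other lists shortened to 3217 lines, the Tal1 difference was -25.2 percentage points in place of -56.8 and the Lyl1 difference -25.4 in place of -44.0. No paired analysis was possible because each factor has 1 library and no result comes from a test. Depth is unknown, and another culture or antibody for Runx1 was not measured.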
